A study of Mus musculus with 15 samples.

Results

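The difference in ventricular gene expression between Acsl1H-/- knockout and Acsl1flox/flox control mice over 2 and 10 weeks was measured on all 7 knockout and all 8 control arrays, with time as an additive term. These 15 arrays are the whole series. At an adjusted p under 0.05, 22 of 19532 genes passed, which is 0.113% of the genes tested. In the knockouts 9 genes rose (0.0461%) and 13 fell (0.0666%). The risers included Myh7, the slow myosin heavy chain that the adult mouse ventricle largely gives up, Nmrk2, a kinase that makes NAD from nicotinamide riboside, and the complement protease C1ra. Among the genes that fell were Eif4ebp1, the translation repressor 4E-BP1, the cardiac transcription factor Tbx5, the inward rectifier potassium channel Kcnj12 and the orphan receptor Gpr22.

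Acsl1 encodes a long-chain acyl-CoA synthetase, which joins fatty acids to coenzyme A and so commits them to oxidation in mitochondria. The adult heart draws most of its energy from that route, and a heart that burns less fat uses more glucose. The series title places the study in such a switch of fuel and links it to hypertrophy and to mTOR, the kinase that couples nutrients to growth. In hypertrophy the ventricle of rodents takes up again part of its fetal gene program, of which Myh7 and the natriuretic peptides are the best known members.

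The animals were male littermates of strain C57Bl/J6, given tamoxifen at 75 mg/kg into the abdomen on each of 4 days at 6 to 8 weeks of age. Ventricles were taken 2 weeks later from 4 control mice and 3 knockout mice, and 10 weeks later from 4 of each. Both genotypes received tamoxifen and both carried flox alleles. The labels do not name the recombinase of the knockout line, which published work on this line gives as an inducible enzyme under the Myh6 promoter of heart muscle cells, so that fibroblasts, endothelium and other cells of the ventricle would keep the gene. No group carried the recombinase without flox alleles, so effects of the recombinase and of the deletion cannot be told apart. Each array set Cy5-labelled heart RNA against Cy3-labelled RNA of whole neonatal mice of mixed 129Sv and C57BL/6 strain.

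The deposited values were taken as log2 ratios of heart to reference. Every probe had been centred, so 0 is the middle of the 15 arrays and a value gives a position among them, not a level. The tissue label could therefore not be checked against levels of heart markers. The direction of the ratio follows the dyes and is likely rather than stated. Were it opposite, each rise below would be a fall, with the same counts and p-values. Array medians ran from -0.02 to 0.03. Acsl1 was not analysed here. Of the 93 control features on the array, 2 parted the genotypes on all 15 arrays: AT_nX_3 lay between 7.60 and 8.40 in knockouts and between -0.23 and 0.00 in controls, and AT_nX_5 between 6.12 and 6.95 against -0.38 to 0.00. Among the other 91 the largest difference between genotype means was 0.50 in size. What these features detect is not given in the sources used here.

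Myh7 gave the smallest p-value of all 19532 genes. Its values were 1.40, 1.45 and 1.59 in knockouts of 2 weeks and 1.85, 1.48, 1.55 and 1.78 in knockouts of 10 weeks. In controls they were -1.11, -1.33, 0.00 and -1.48 at 2 weeks and -1.02, -1.51, -0.49 and -0.98 at 10 weeks. All knockouts lay above all controls, and the knockouts of the 2 times overlapped each other. Over both times Myh7 rose by 2.57 ± 0.20 (log2, with SE here and below), which is 5.93-fold (adjusted p = 7.8e-05, limma). The difference was 2.46 ± 0.35 at 2 weeks and 2.66 ± 0.21 at 10 weeks. Its change between the times was 0.21, with a 95% interval of -0.69 to 1.11. Both Myh7 probes moved together, at 2.63 and 2.50, and their values correlated at r = 0.998 over the arrays.

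Other genes of the fetal program stood further from the threshold. Of 24 measured genes of sarcomere and hypertrophy, Myh7 and Nmrk2 rose at an adjusted p under 0.05, while 8 members were higher and 2 lower at an unadjusted p under 0.05, shares of 33.3% and 8.33%. Over all genes 4.44% were higher and 4.85% lower by that rule (9.30% in all). Nmrk2 encodes a metabolic enzyme, not a sarcomere protein, and is counted again among the NAD genes below. The lists were chosen with earlier results of these data known, so its place here is no separate support. The sarcomere and hypertrophy list had a median difference of 0.17, against -0.01 over all genes tested. The natriuretic peptide gene Nppb differed by 1.04 ± 0.22 (adjusted p = 0.0761), with 1.09 at 2 weeks and 0.99 at 10 weeks. Knockouts of Nppb lay between -0.28 and 0.93 and controls between -1.96 and 0.00, so the genotypes overlapped.

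**Figure D1:**
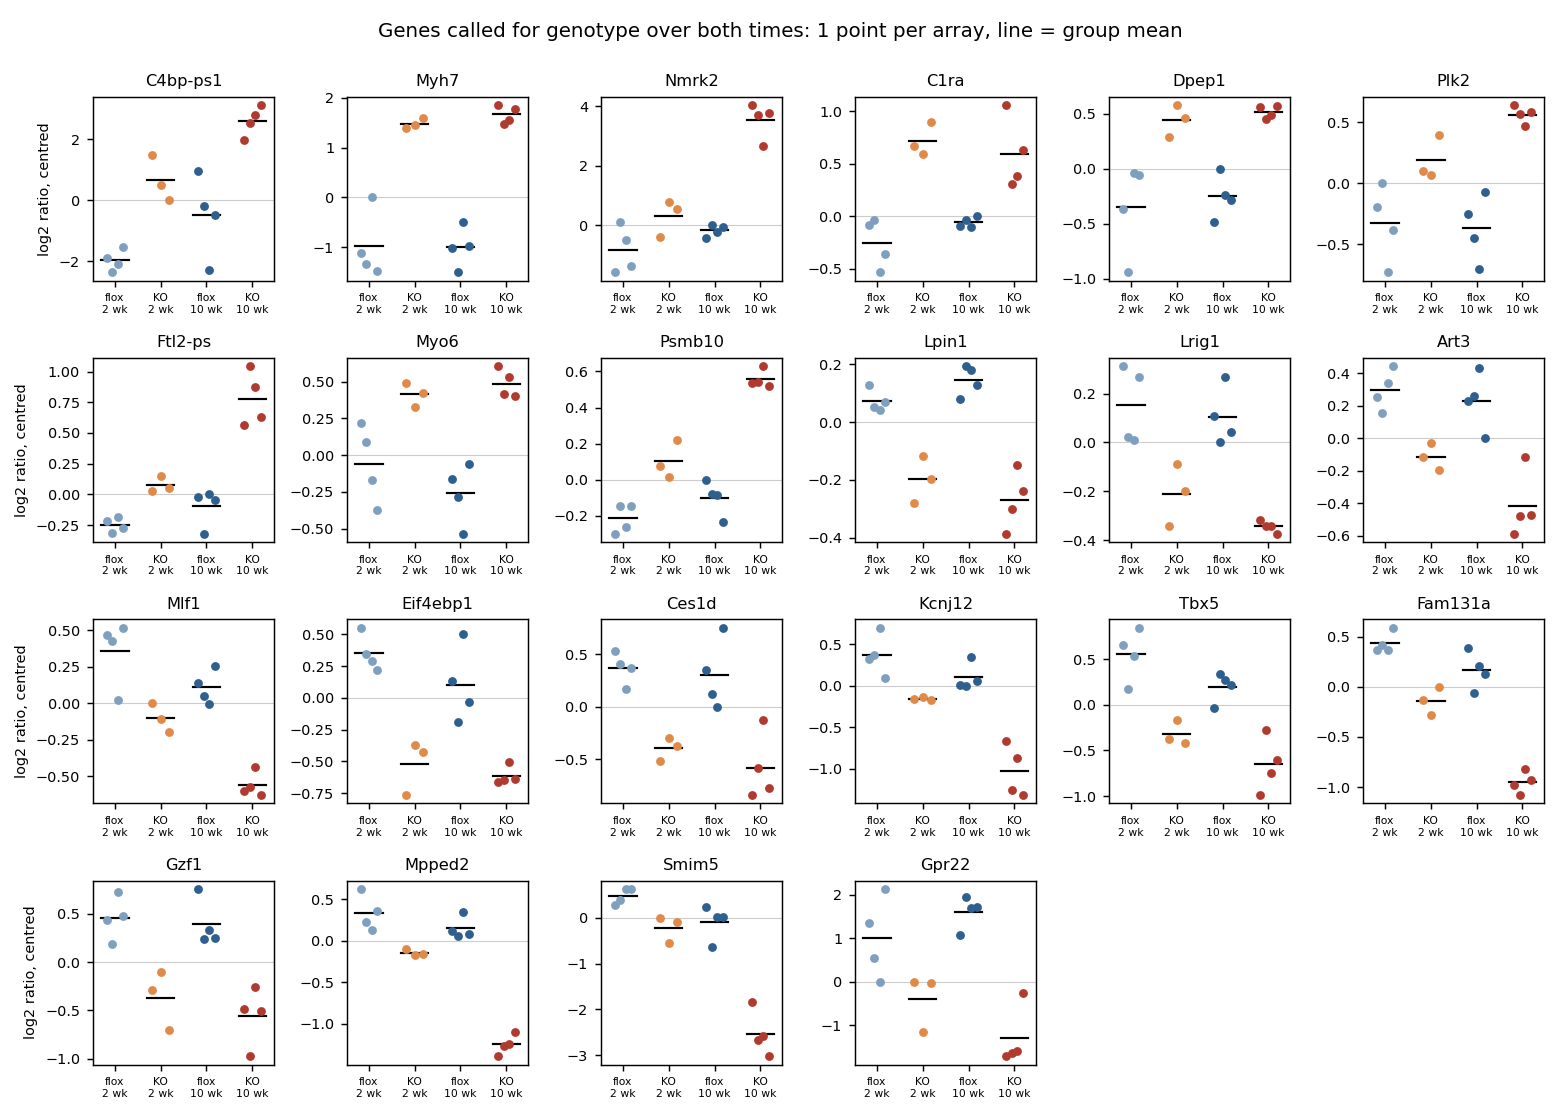
Centred log2 ratios (y axis) of the 22 called genes, 1 point per array and a line at each group mean, for flox controls and knockouts (KO) at 2 and 10 weeks. Myh7, C1ra, Dpep1, Eif4ebp1 and Tbx5 part the genotypes at both times, while Nmrk2, Smim5 and Mpped2 move mainly at 10 weeks. The difference of C1ra was 0.97 at 2 weeks and 0.65 at 10 weeks.

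Nmrk2, which is induced in stressed hearts and muscle, rose with the largest spread between the times. Its values were -0.41, 0.79 and 0.53 in knockouts of 2 weeks, and 4.03, 3.70, 2.66 and 3.77 in knockouts of 10 weeks. Controls lay at -1.59, 0.12, -0.51 and -1.38 at 2 weeks and at -0.42, 0.00, -0.24 and -0.05 at 10 weeks. The groups overlapped at 2 weeks and were far apart at 10 weeks. Over both times Nmrk2 rose by 2.53 ± 0.44 (adjusted p = 0.0493), from 1.14 ± 0.49 at 2 weeks to 3.72 ± 0.29 at 10 weeks, and the difference between these effects was 2.58 (95% interval 1.33 to 3.82, unadjusted p = 6.2e-04, adjusted p = 0.315). In limma's fit of 2 weeks alone it was the 1 called gene that missed an unadjusted p of 0.05, at 0.0520. Of the 22 measured genes of NAD synthesis and sirtuins it was the 1 called member, and the list's median was 0.004.

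C4bp-ps1, C1ra and Dpep1 rose as well. C4bp-ps1, a pseudogene of the complement regulator C4b-binding protein, lay at 1.48, 0.51 and 0.00 in knockouts and -1.89, -2.37, -2.10 and -1.55 in controls of 2 weeks. At 10 weeks it lay at 1.95, 2.51, 2.78 and 3.11 in knockouts and 0.96, -0.19, -2.29 and -0.48 in controls. Within each time all knockouts lay above all controls, but the control values of 10 weeks reached above the lower knockouts of 2 weeks. C4bp-ps1 rose by 2.88 ± 0.39 (adjusted p = 0.0155), and its probes gave 2.93 and 2.83. Its probes may also bind transcripts of related complement genes, which these data cannot separate.

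C1ra, a mouse gene for the protease C1r that starts the classical complement cascade, lay at 0.66, 0.59 and 0.90 in knockouts of 2 weeks and at 1.06, 0.31, 0.38 and 0.63 in those of 10 weeks. All 8 controls lay between -0.54 and 0.00, below every knockout. C1ra rose by 0.80 ± 0.12 (adjusted p = 0.0232), with 0.97 ± 0.16 at 2 weeks and 0.65 ± 0.16 at 10 weeks. Dpep1, a membrane dipeptidase on the list of fibroblast markers, lay at 0.29, 0.58 and 0.46 in knockouts of 2 weeks and at 0.56, 0.45, 0.49 and 0.57 at 10 weeks. Controls of Dpep1 ran from -0.94 to 0.00, and no control reached a knockout. Dpep1 rose by 0.78 ± 0.12 (adjusted p = 0.0339), with 0.79 and 0.77 at the 2 times.

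Markers of fibroblasts, a list that includes Dpep1, were mostly higher in knockouts as well. Of 18 fibroblast markers 1 was called, Dpep1, and 9 (50%) were higher and none lower at an unadjusted p under 0.05, against 4.44% of all genes. Their median difference was 0.41, with 0.51 at 2 weeks and 0.25 at 10 weeks, where all genes had -0.02 at each time. Averaged over the list, knockouts of 2 weeks lay between 0.28 and 0.94 and their controls between -0.40 and 0.38. At 10 weeks knockouts lay between -0.12 and 0.29 and controls between -0.56 and 0.01, so the genotypes overlapped at both times. Of 38 matrix genes none was called and 16 (42.1%) were higher at the unadjusted threshold, with a median of 0.28. This median was 0.46 at 2 weeks and 0.16 at 10 weeks, and 2 of the 38 were higher past 0.05 at each time. Averaged over the matrix list, knockouts of 2 weeks lay between 0.16 and 0.90 and their controls between -0.23 and 0.28. At 10 weeks knockouts lay between -0.10 and 0.16 and controls between -0.17 and -0.02. The matrix protease gene Mmp14 came nearest, at 0.67 ± 0.14 (adjusted p = 0.0733), with 0.86 at 2 weeks and 0.51 at 10 weeks. Lum, which encodes the collagen-binding proteoglycan lumican, differed by 0.75 ± 0.19 (adjusted p = 0.151). In RNA of whole ventricle, more cells of a type and more RNA per cell cannot be told apart, and the part of cell numbers in the rise of Dpep1 was not tested. Among markers of other cells, the median was 0.11 over 15 endothelial genes, 0.05 over 13 smooth muscle and pericyte genes and 0.0038 over 13 macrophage genes, with 1 higher of 15, 1 higher and 2 lower of 13, and 2 higher of 13 at the unadjusted threshold.

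The remaining genes that rose were smaller and mostly larger at the later time. Plk2, a stress-induced polo-like kinase, lay at 0.10, 0.06 and 0.39 in knockouts of 2 weeks, at 0.64, 0.57, 0.47 and 0.58 in knockouts of 10 weeks and between -0.73 and 0.00 in controls. Psmb10, a catalytic subunit of the immunoproteasome, lay at 0.08, 0.02 and 0.22, then at 0.54, 0.54, 0.63 and 0.52, and between -0.30 and 0.00 in controls. For both genes all knockouts lay above all controls, and the later knockouts above the earlier. Plk2 rose by 0.74 ± 0.13 (adjusted p = 0.0493) and Psmb10 by 0.50 ± 0.08 (adjusted p = 0.0232). The effect on Psmb10 was larger at 10 than at 2 weeks by 0.34 (95% interval 0.07 to 0.61). Ftl2-ps, a pseudogene of the ferritin light chain, rose by 0.62 ± 0.11 (adjusted p = 0.0493), with 0.33 at 2 weeks and 0.88 at 10 weeks. Its probe may bind transcripts of the ferritin light chain gene, so the source of that signal is uncertain. Myo6, a myosin that walks toward the minus end of actin filaments, rose by 0.62 ± 0.10 (adjusted p = 0.0414) as the mean of 3 probes.

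Eif4ebp1 was the called gene closest to mTOR, whose kinase complex phosphorylates 4E-BP1 and so frees the cap-binding factor for translation. Its values were -0.76, -0.37 and -0.42 in knockouts of 2 weeks and -0.66, -0.65, -0.50 and -0.64 in those of 10 weeks. Controls lay at 0.55, 0.35, 0.29 and 0.22 at 2 weeks and at 0.13, -0.19, 0.50 and -0.03 at 10 weeks. All knockouts lay below all controls. Eif4ebp1 fell by 0.79 ± 0.10 (log2, adjusted p = 0.0155), and the effect did not differ detectably between 2 weeks (-0.87 ± 0.14) and 10 weeks (-0.72 ± 0.15), with an interval of the difference from -0.30 to 0.61. Its 2 probes disagreed: one gave -1.44 (adjusted p = 0.00314 among single probes) and the other -0.14 (adjusted p = 0.684).

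Eif4ebp1 was the 1 called gene among 40 measured components of the mTOR pathway. At an unadjusted p under 0.05, 2 of the 40 (5%) were higher and 4 (10%), Eif4ebp1 among them, lower. Over all genes 4.44% were higher and 4.85% lower. The median of the mTOR list was -0.01, as over all genes. Eif4ebp1 is also a known target of the stress factor ATF4, and it was the 1 called member of 37 measured ATF4 targets of amino acid and one-carbon metabolism. Of these targets 13 (35.1%) were higher and 3 (8.11%), Eif4ebp1 among them, lower at the unadjusted threshold. The median of the ATF4 list was 0.23, with -0.06 at 2 weeks and 0.37 at 10 weeks. Mthfd2, the mitochondrial folate enzyme, gave 2.09 ± 0.47 over both times (adjusted p = 0.0915), from 0.54 ± 0.38 at 2 weeks to 3.41 ± 0.37 at 10 weeks. Atf5, a transcription factor of the same response, gave 0.78 ± 0.18 (adjusted p = 0.0982). The 18 aminoacyl-tRNA synthetases had a median of 0.19, with 0.03 and 0.36 at the 2 times, and none was called.

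Tbx5, a T-box factor that directs formation of the heart and its conduction system, fell by 0.86 ± 0.12 (log2, adjusted p = 0.0158), with -0.87 ± 0.18 at 2 weeks and -0.85 ± 0.16 at 10 weeks. Its values were -0.37, -0.17 and -0.41 in knockouts of 2 weeks and -0.99, -0.28, -0.75 and -0.60 at 10 weeks. Controls lay at 0.66, 0.17, 0.54 and 0.84, then at -0.04, 0.34, 0.27 and 0.22. Each knockout lay below each control. The probes of Tbx5 disagreed in sign, one with -1.87 (adjusted p = 0.00314) and the other with 0.15 (adjusted p = 0.807), and their values over the arrays correlated at r = -0.393. Tbx5 was the 1 called gene among 13 atrial and conduction markers, whose median was -0.12. The average of those markers was 1.52 in control replicate 1 of 2 weeks and between -0.21 and 0.29 on the other 3 arrays of that group. Without that array Tbx5 gave -0.84 (adjusted p = 0.0330), and 18 genes were called in place of 22.

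Other genes that fell act in ion flow, signalling and lipid metabolism. Kcnj12, the Kir2.2 channel that helps set the resting potential, lay at -0.16, -0.14 and -0.17 in knockouts of 2 weeks and at -0.67, -1.26, -0.87 and -1.32 in those of 10 weeks. Controls of Kcnj12 ran from 0.00 to 0.70, above all knockouts. Kcnj12 fell by 0.85 ± 0.14 (adjusted p = 0.0372), with -0.53 at 2 weeks and -1.13 at 10 weeks. Of 17 other potassium, sodium and pacemaker channels none was called, and 6 (35.3%) were lower and none higher at the unadjusted threshold (background 4.85% lower), with a median of -0.25. The average of these channels was -0.50 in knockout replicate 1 of 10 weeks and between -0.02 and 0.02 in the other 3 knockouts of that time. Without that array, a comparison chosen after seeing the data, 3 of the 17 were lower and 1 higher at the unadjusted threshold, with a median of -0.19. None of the 17 passed an unadjusted p of 0.05 in the same direction at each time. Their median was -0.14 at 2 weeks and -0.15 at 10 weeks. Kcnq1, a channel of late repolarization, differed by -0.42 ± 0.13 (adjusted p = 0.282) and Kcnj11, the pore of the ATP-sensitive channel, by -0.50 ± 0.17 (adjusted p = 0.331). Both differences lay mainly at 10 weeks, with -0.08 at 2 weeks and -0.71 at 10 weeks for Kcnq1. For Kcnj11 they were -0.14 and -0.80.

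The largest fall was that of Gpr22, which encodes a G protein-coupled receptor without a known ligand that is found in heart. It lay at -0.01, -1.17 and -0.03 in knockouts of 2 weeks and at -1.72, -1.64, -1.59 and -0.26 in those of 10 weeks. Controls lay at 1.34, 0.55, 0.00 and 2.13, then at 1.08, 1.94, 1.70 and 1.72. The lowest control met the highest knockouts almost level, at 0.00 against -0.01, and the other controls lay at 0.55 or above. Gpr22 fell by 2.22 ± 0.38 (adjusted p = 0.0493), with -1.41 ± 0.55 at 2 weeks and -2.91 ± 0.35 at 10 weeks. It was the 1 called gene of 24 neurohormone receptors and cyclic nucleotide genes. Of these, 7 (29.2%) were lower and none higher at the unadjusted threshold, against 4.85% and 4.44% of all genes. The list's median was -0.22, with -0.09 at 2 weeks and -0.28 at 10 weeks. Only 1 member, Gpr22, passed an unadjusted p of 0.05 in the same direction at each time. The phosphodiesterase gene Pde1c differed by -0.73 ± 0.21 (adjusted p = 0.210) and the adenylyl cyclase gene Adcy6 by -0.37 ± 0.13 (adjusted p = 0.323). Pde1c gave -0.36 at 2 weeks and -1.05 at 10 weeks, and Adcy6 -0.02 and -0.67.

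Lipid enzymes were few among the shared changes. Ces1d, a carboxylesterase that hydrolyses triacylglycerol, lay at -0.52, -0.30 and -0.37 in knockouts of 2 weeks, at -0.84, -0.59, -0.12 and -0.78 at 10 weeks, and between 0.00 and 0.76 in controls. Lpin1, a phosphatidate phosphatase on the route to triacylglycerol and a coactivator of fatty acid oxidation genes, lay at -0.28, -0.12 and -0.20, then at -0.39, -0.30, -0.15 and -0.24, and between 0.04 and 0.19 in controls. All knockouts lay below all controls for both genes. Ces1d fell by 0.83 ± 0.13 (adjusted p = 0.0249). Lpin1 fell by 0.35 ± 0.06 (adjusted p = 0.0493), the smallest called change, and its 4 probes ran from -0.38 to -0.31. Among 33 glycerolipid and lipid droplet genes Lpin1 was the 1 called.

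Genes of fatty acid oxidation and PPAR targets were higher mainly at 10 weeks and gave no called member over both times. Of 29 oxidation genes 11 (37.9%) were higher and 1 lower at the unadjusted threshold, with a median of 0.17, and of 18 further PPAR targets 9 (50%) were higher and none lower, with a median of 0.16. At 2 weeks these medians were -0.004 and 0.08, and at 10 weeks 0.25 and 0.22. Acot2, a mitochondrial acyl-CoA thioesterase, gave 1.26 ± 0.23 (adjusted p = 0.0504), from 0.52 at 2 weeks to 1.89 at 10 weeks. Pdk4, the kinase that shuts pyruvate dehydrogenase, gave 1.52 ± 0.33 (adjusted p = 0.0769), and Fabp3, which carries fatty acids through the cytosol, gave 0.65 ± 0.13 (adjusted p = 0.0584). Each of the 3 gave the larger value at 10 weeks, where Fabp3 lay between 0.86 and 0.99 in knockouts and between -0.21 and 0.00 in controls. Of 48 respiratory chain genes 42 lay below 0, where 10422 of 19532 genes tested did, with a median of -0.05, and 4 (8.33%) were lower at the unadjusted threshold. Of 30 genes of glucose uptake and glycolysis none was called. By that threshold 1 (3.33%) was higher and 6 (20%) were lower, against 4.44% and 4.85% of all genes. Their median was -0.05, with -0.02 at 2 weeks and -0.13 at 10 weeks.

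**Figure D2:**
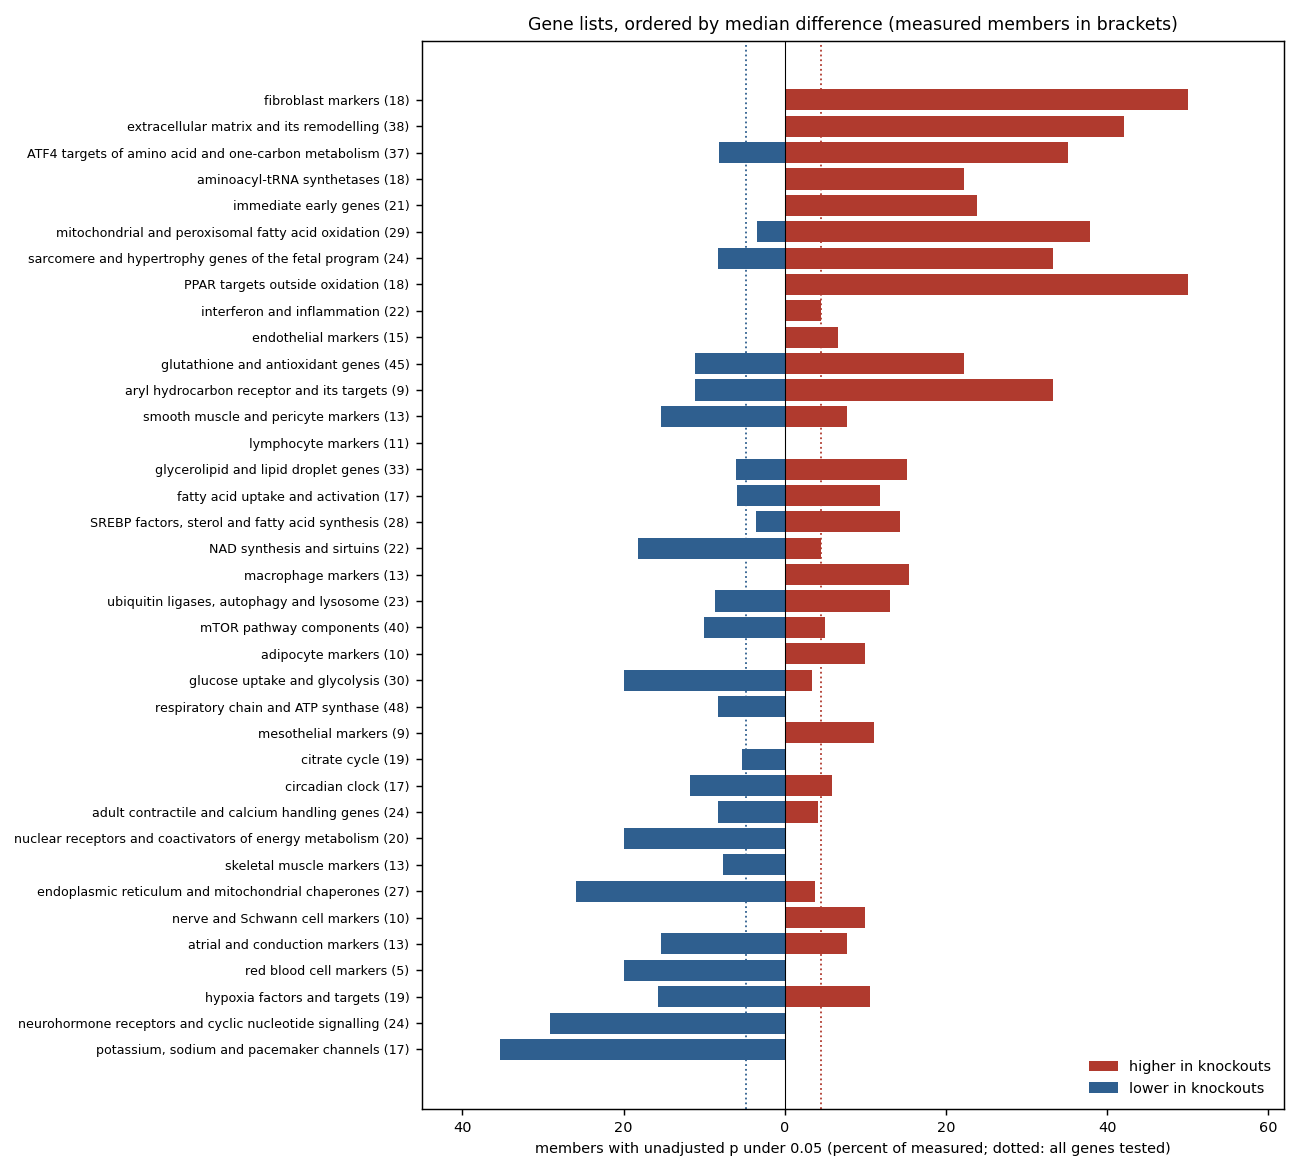
Share of the measured members of each gene list (percent, x axis) with an unadjusted p under 0.05, higher in knockouts to the right and lower to the left, for lists ordered by their median difference, with dotted lines at the shares of all genes tested (4.44% higher, 4.85% lower). Fibroblast markers and PPAR targets reach 50% on the higher side, and ion channels 35.3% on the lower side.

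**Figure D3:**
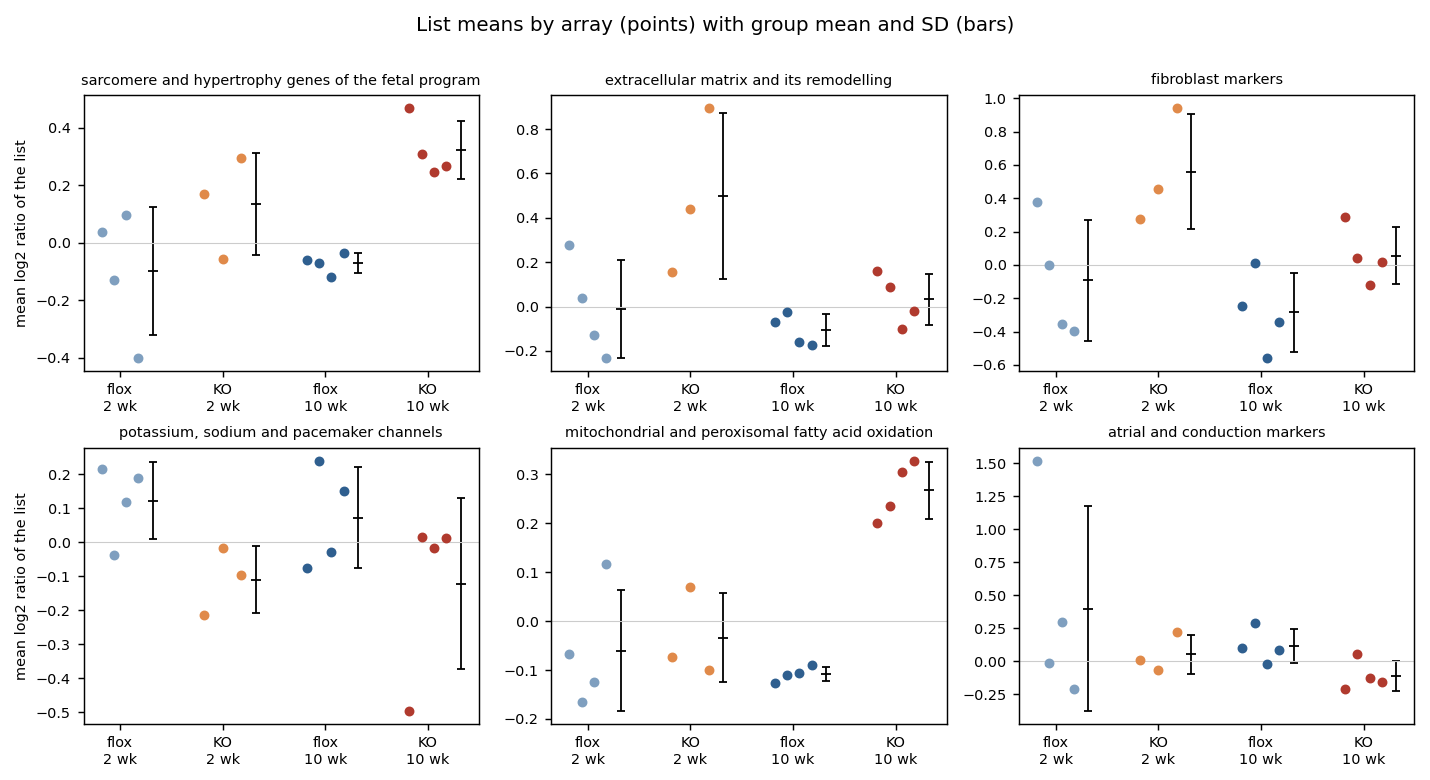
Mean centred log2 ratio of 6 lists (y axis) on each array, for flox controls and knockouts (KO) at 2 and 10 weeks, with bars for the group mean and SD. The oxidation genes part the genotypes at 10 weeks and overlap at 2 weeks, the matrix genes are highest in knockouts of 2 weeks, and control replicate 1 of 2 weeks stands at 1.52 for atrial markers.

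The other genes that fell have less settled roles in heart. Fam131a, whose function is little known, lay at -0.13, -0.29 and 0.00 in knockouts of 2 weeks and at -0.98, -1.08, -0.82 and -0.93 at 10 weeks. Controls of Fam131a ran from 0.37 to 0.59 at 2 weeks and from -0.06 to 0.39 at 10 weeks, apart from the knockouts within each time. It fell by 0.86 ± 0.11 (adjusted p = 0.0114), the second smallest p-value. Mpped2, a metallophosphoesterase, lay at -0.10, -0.17 and -0.16 in knockouts of 2 weeks, at -1.39, -1.27, -1.24 and -1.10 at 10 weeks and between 0.05 and 0.63 in controls, above all knockouts. Mpped2 fell by 0.98 ± 0.15 (adjusted p = 0.0232), and Smim5, a small membrane protein, by 1.63 ± 0.29 (adjusted p = 0.0493). Smim5 lay at 0.00, -0.55 and -0.11 in knockouts of 2 weeks and at -1.84, -2.66, -2.58 and -3.02 at 10 weeks, against -0.64 to 0.62 in controls. The knockouts of 2 weeks thus lay within the range of all controls, though below the controls of their own time. Gzf1, a zinc finger protein, fell by 0.89 ± 0.13 (adjusted p = 0.0232), with probes at -1.59 and -0.19. Mlf1, a partner of 14-3-3 proteins, fell by 0.57 ± 0.09 (adjusted p = 0.0232), Art3, a surface protein of the ADP-ribosyltransferase family, by 0.54 ± 0.09 (adjusted p = 0.0493), and Lrig1, which restrains ErbB receptors, by 0.41 ± 0.07 (adjusted p = 0.0493).

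Of the 22 called genes 8 had more than 1 probe. The probes of Myh7, C4bp-ps1, Mpped2 and Lpin1 moved together, with lowest correlations between probes of a gene of 0.998, 0.945, 0.938 and 0.746. For Eif4ebp1, Tbx5 and Gzf1, 1 probe of the pair carried the difference. For Myo6 none of the 3 probes was called singly (0.67, 0.79 and 0.41, adjusted p = 0.627, 0.517 and 0.591), since different knockout arrays were high on different probes. The call of Myo6 rested on the mean of its probes. Tested singly, 27 of 32664 probes with 1 symbol were called.

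**Figure D4:**
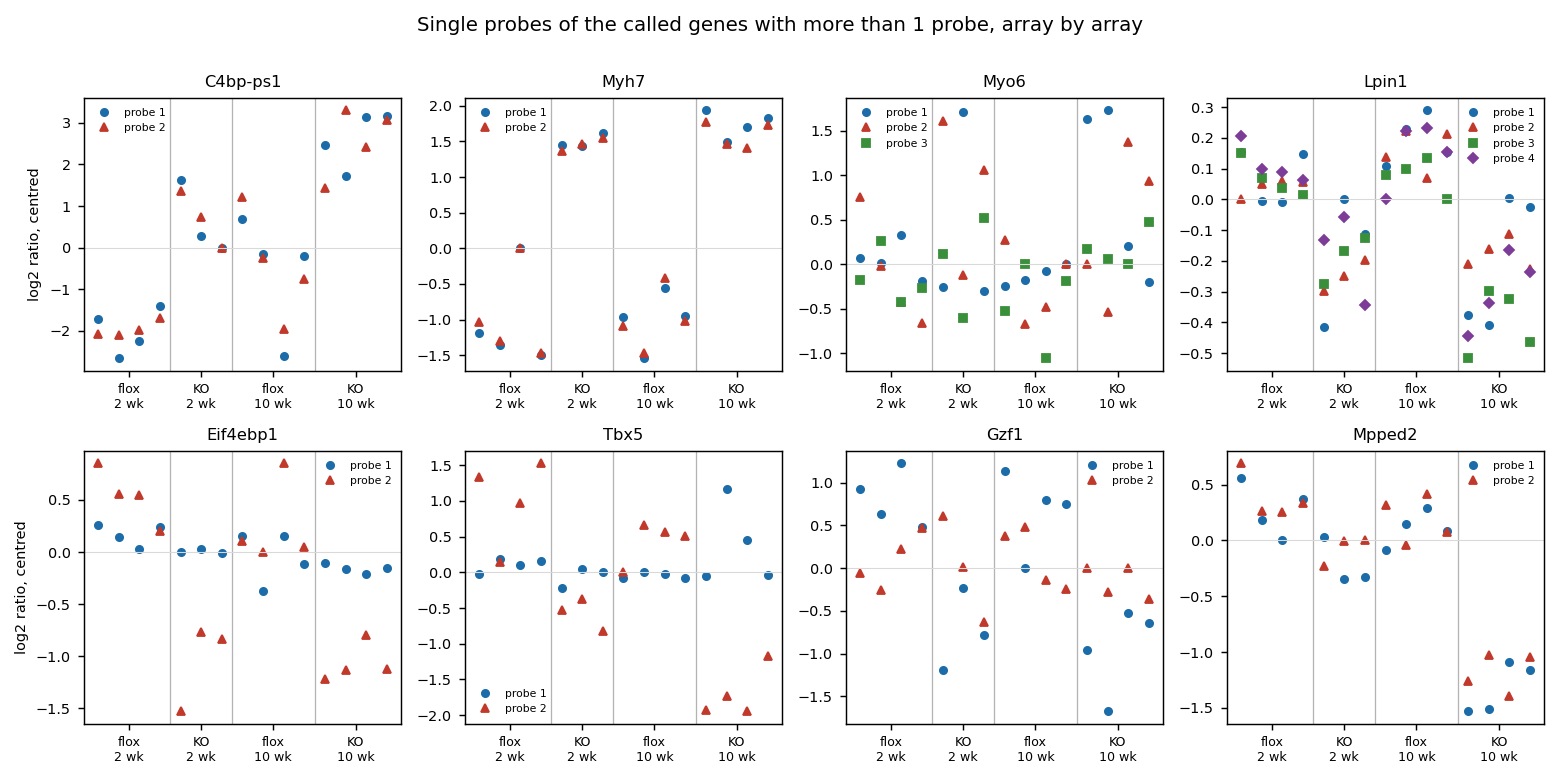
Centred log2 ratio (y axis) of each probe of the 8 called genes with more than 1 probe, array by array within flox controls and knockouts (KO) at 2 and 10 weeks. Probes overlie each other for Myh7 and Mpped2, while 1 probe of Eif4ebp1 stays near 0, 1 probe of Tbx5 is high in knockout replicates 2 and 3 of 10 weeks (1.17 and 0.46) and the 3 probes of Myo6 do not follow each other.

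Promoters from RefSeq (GRCm38.p6, 250 bases before to 50 after the start) were found for 16 of the 22 genes. Those of Myh7, the riser with the smallest p-value, of Nmrk2, the riser that changed most between the times, and of Gpr22, the gene with the largest fall, are shown, each on its own minus strand. Capitals in Myh7 mark the core CATTCC (here read on the other strand) of the M-CAT element, to which TEAD factors bind, and in Nmrk2 the core TGACNNNGC of the antioxidant response element, also on the other strand. Gpr22 held none of the motifs searched. RefSeq gives Myh7 another start, whose window (chr14:54994500-54994799) held none of them either and is not printed.

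Myh7, chr14:54994577-54994876: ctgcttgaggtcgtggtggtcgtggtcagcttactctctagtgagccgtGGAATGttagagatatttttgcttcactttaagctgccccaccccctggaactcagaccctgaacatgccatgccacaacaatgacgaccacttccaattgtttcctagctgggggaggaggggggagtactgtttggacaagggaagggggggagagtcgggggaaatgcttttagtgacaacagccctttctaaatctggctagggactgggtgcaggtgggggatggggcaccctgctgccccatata
Nmrk2, chr10:81201988-81202287: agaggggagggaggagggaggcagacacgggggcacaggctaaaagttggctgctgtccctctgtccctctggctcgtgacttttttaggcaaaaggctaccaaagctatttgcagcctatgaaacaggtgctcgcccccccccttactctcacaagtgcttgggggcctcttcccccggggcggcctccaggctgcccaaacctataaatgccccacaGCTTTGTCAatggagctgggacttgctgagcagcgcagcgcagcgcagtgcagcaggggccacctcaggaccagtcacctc
Gpr22, chr12:31713834-31714133: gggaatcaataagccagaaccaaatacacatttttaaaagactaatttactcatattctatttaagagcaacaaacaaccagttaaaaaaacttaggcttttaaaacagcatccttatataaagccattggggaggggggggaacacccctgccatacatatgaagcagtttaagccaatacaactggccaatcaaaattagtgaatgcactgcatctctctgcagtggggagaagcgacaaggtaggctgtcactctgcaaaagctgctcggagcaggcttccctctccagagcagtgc

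Searched on both strands, the M-CAT core was in a promoter of 5 of the 16 genes (Art3, C1ra, Dpep1, Myh7 and Myo6), while 16.6% of 27025 genes with promoters held it. This motif was added after values had been seen. The antioxidant core was in 3 of 16 (Fam131a, Mpped2 and Nmrk2) against 14.0% of genes. The cores TGATGNAA of ATF4 and its partners (Art3) and CACGTG, the E-box (Psmb10), were in 1 of 16 each, against 4.51% and 8.09%. The core GCGTG of the aryl hydrocarbon receptor was in 7 of 16 against 35.2%, and AAGGTCA of estrogen-related receptors in 2 of 16 against 5.38%. CACGTG and GCGTG can share bases. A match of letters is no evidence that a factor binds.

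The separate fits of each time, on 7 and 8 arrays with none in common, show how far the change was shared. All 22 called genes had the same sign at both times, and 21 had an unadjusted p under 0.05 at each time, where 152 of all genes (0.778%) did. Over all genes 6.32% passed that threshold at 2 weeks and 9.60% at 10 weeks. These arrays had chosen the 22 genes, so those counts describe them and test nothing. For 17 of the 22 all 7 knockouts lay beyond all 8 controls (7 higher, 10 lower), a pattern of 60 genes in all (0.307%). For 21 they did so within each time, a pattern of 125 genes (0.640%).

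A reading free of that choice starts from 1 time and reads the other. Of 50 genes called in the fit of 10 weeks alone (0.256%), 42 (84%) had the same sign at 2 weeks, where 52.8% of all genes did. An unadjusted p under 0.05 in the same direction at 2 weeks was reached by 9 of the 50 (18%) and by 3.63% of all genes, and 1 of the 50 passed in the opposite direction. The median size of these 50 differences was 1.33 at 10 weeks, and their median at 2 weeks in the same direction was 0.21. In the reverse order a looser rule was used, as the fit of 2 weeks called only 1 gene. At 2 weeks 31 genes had an unadjusted p under 0.001. Of these, 22 (71.0%) kept their sign and 7 (22.6%) passed 0.05 in it at 10 weeks, and 1 passed in the opposite direction. Over all genes 9.60% passed 0.05 at 10 weeks in either direction. By that looser rule 177 genes were taken at 10 weeks. Of these, 145 (81.9%) kept their sign and 30 (16.95%) passed 0.05 in it at 2 weeks, and 1 passed in the opposite direction. Over all 19532 genes the differences of the 2 times correlated only weakly (Pearson r = 0.0934, Spearman rho = 0.0706). Genes are not independent of each other, and noise in most of them lowers such a value.

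**Figure D5:**
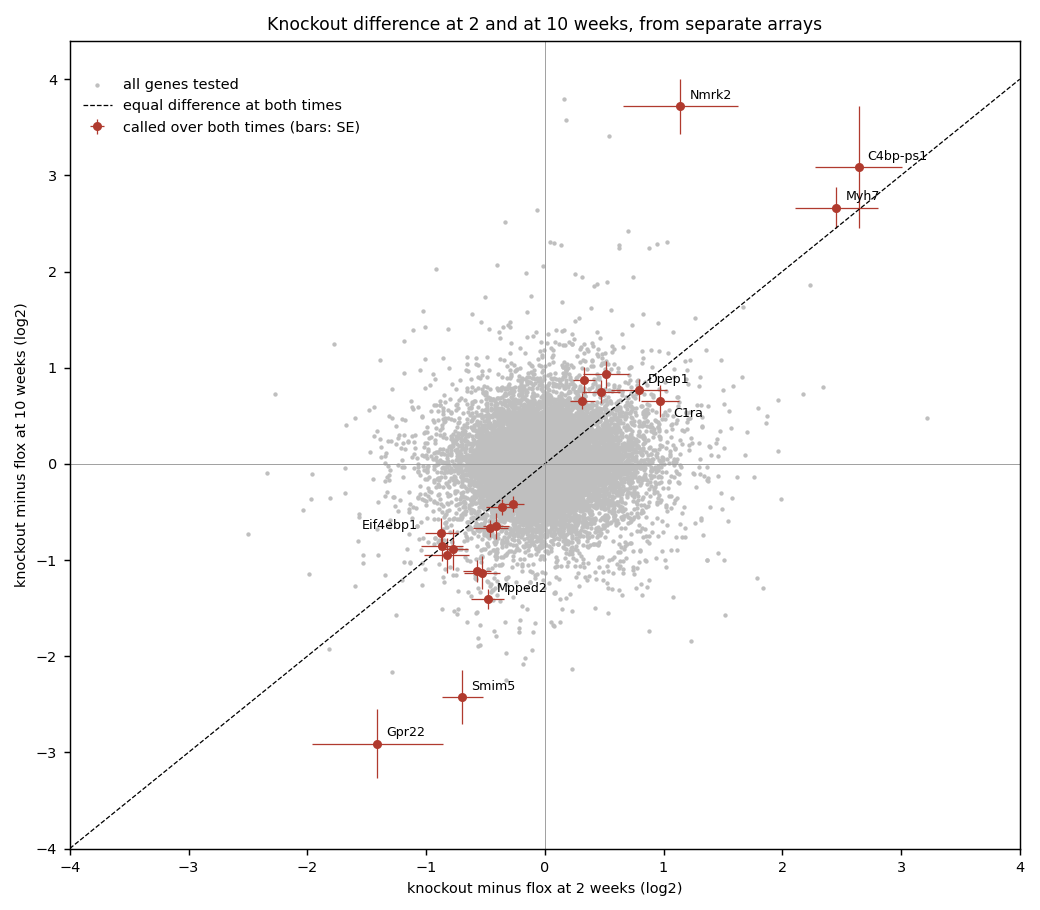
Knockout minus control at 2 weeks (x axis, log2) against the same at 10 weeks (y axis, log2) for 19532 genes, with the 22 called genes in red and bars for the SE. Myh7, C4bp-ps1, C1ra, Dpep1 and Eif4ebp1 lie near the dashed line of equal differences, and Nmrk2, Smim5, Gpr22 and Mpped2 lie toward larger values at 10 weeks.

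The size of the change was often larger at the later time. In 18 of the 22 genes it was larger at 10 than at 2 weeks, where 49.1% of all genes were, and C1ra, Dpep1, Eif4ebp1 and Tbx5 were the exceptions. The 22 were chosen on these same arrays, and the 49.1% comes mostly from genes without a called change. The count of 18 thus describes the 22 and tests nothing. The difference between effects reached an unadjusted p under 0.05 for 8 of the 22, Nmrk2, Ftl2-ps, Psmb10, Kcnj12, Fam131a, Mpped2, Smim5 and Gpr22, and each of these was larger at 10 weeks. Over all genes 6.81% passed that threshold and 3.78% did so with the larger size at 10 weeks. After adjustment no gene passed in limma (0%, smallest adjusted p = 0.0901 over all genes). Mpped2 changed from -0.48 ± 0.14 to -1.40 ± 0.10 (difference -0.92, 95% interval -1.29 to -0.55), Smim5 from -0.70 ± 0.17 to -2.42 ± 0.28 (interval of the difference -2.50 to -0.96) and Fam131a from -0.57 ± 0.12 to -1.12 ± 0.12 (interval -0.90 to -0.19). For Myh7, C1ra, Dpep1, Tbx5, Gzf1 and Ces1d the interval included 0, which does not show that the effects were alike: that of Dpep1 ran from -0.59 to 0.53 and that of C1ra from -0.83 to 0.19. In the fit of 10 weeks alone 8 of the 22 were called, and in that of 2 weeks alone, which called 1 gene (0.00512%), none of them.

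Of the 22 calls, 8 lay at an adjusted p of 0.0493, close to the threshold. Just beyond it were Slco3a1, Cyp1a1, Gpr152, Prepl and Acot2, each with an adjusted p of 0.0504. Cyp1a1, which the aryl hydrocarbon receptor induces, gave -1.76 ± 0.31 (-1.29 at 2 weeks and -2.17 at 10 weeks). With each of the 15 arrays removed in turn, Myh7, Eif4ebp1 and Fam131a stayed called every time. The count fell to 5, 8, 14 and 6 without knockout replicates 1, 2, 3 and 4 of 10 weeks, to 5, 13, 7 and 3 without control replicates 1, 2, 3 and 4 of 10 weeks and to 10 without control replicate 4 of 2 weeks. After quantile normalization 49 genes were called, 29 higher and 20 lower, in place of 9 and 13, and the 22 were all among them.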

How the data were processed

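The deposited table holds 41267 probes on 15 two-colour Agilent arrays, 1 column per mouse heart, which the labels give as biological replicates. Its values were taken as log2 ratios of Cy5 heart over Cy3 reference, as the authors deposited them, with dyes and 500 ng of RNA per the labels' protocols. Not given in the sources used here were the log base, direction, scan software, background correction and scaling. Each probe has a median of 0 over the arrays, values ran from -4.96 to 8.40, and correlations between arrays from -0.0582 to 0.142. Scan dates and signal over background were not used, and precision is limited by the number of arrays.

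Probes with 1 gene symbol in the platform annotation (32664) were averaged per gene, which gave 19532 genes. Another 45 probes had several symbols, 8465 mouse probes none and 93 were control features; they entered no gene. Of 33 mouse probes called singly, 6 carried no single symbol and are not reported here. Gene IDs of 19410 genes matched the RefSeq table.

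Genotype with time as an additive term was fitted with limma 3.58.1 (lmFit, eBayes) in R 4.3.3, with 12 residual degrees of freedom and 2.10 from moderation. P-values are two-sided and adjusted by Benjamini-Hochberg over all genes, with 0.05 as the threshold. Each time was also fitted alone, and the difference between effects was taken from 4 group means. Alternatives covered the time term, scaling, probe choice, moderation, array weights, a fold of 1.5, a replicate block and leaving out each array. On simulated data with 200 changed genes of 19532, the genotype fit recovered 70.0% of 2-fold changes (13 of 153 calls false) and 95.5% of 4-fold changes (15 of 206), and the difference between effects 26.5% and 75.5%. The simulated noise was independent between genes and arrays. For the genotype fit each changed gene had the same effect at both times. Recovery with correlated genes or with effects that differ by time was not measured.

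Named genes were, by rule, the called genes with the largest differences or smallest p-values and up to 3 members of each of 37 lists. The genes just outside the threshold were named for their rank. Members, lists and tests were chosen with earlier results of these data known.

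Within a time, deviations of same-numbered arrays of the 2 genotypes correlated at -0.034 to 0.0628 over 7 pairs. Differently numbered arrays were not compared, so these values cannot exclude pairing by litter or batch. The numbers were not taken to pair the animals in the main fit. With a replicate block within each time, 1 gene stayed called, Myh7.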

Additional observations from a re-analysis of the deposited data

Results flagged for a closer look

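Of the 177 sets of 4 arrays that were examined among called genes and list means, 9 held an array far from the other 3, and chance alone gives about 1 in 20. For the called genes, Ftl2-ps lay at -0.32 in control replicate 2 of 10 weeks, where the nearest of the other arrays was at -0.05. Eif4ebp1 lay at -0.50 in knockout replicate 3 of 10 weeks, with the nearest at -0.64. Kcnj12 lay at 0.34 in control replicate 3 of 10 weeks, with the nearest at 0.06. Gpr22 lay at -0.26 in knockout replicate 4 of 10 weeks, with the nearest at -1.59. Without that array Gpr22 differed by -2.33, so the difference was as large. Its unadjusted p in limma was 4.68e-05, against 4.10e-05 with all arrays. The adjusted p was 0.0635 and the call was lost, in a fit that called 6 genes in all.

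Of the list means, potassium, sodium and pacemaker channels lay at -0.50 in knockout replicate 1 of 10 weeks, with the nearest at -0.02, and the other 3 knockouts of that time were near 0. Respiratory chain genes lay at 0.0244 in knockout replicate 3 of 10 weeks (nearest -0.04). ATF4 targets lay at 0.68 in knockout replicate 2 of 10 weeks (nearest 0.43). SREBP genes lay at -0.11 in control replicate 3 of 10 weeks (nearest 0.04), and endothelial markers at -0.0453 in control replicate 4 of 2 weeks (nearest 0.06).

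Outside the gene measurements, control feature AT_nX_3 was 8.24 higher on the log2 scale in knockouts than in controls and AT_nX_5 was 6.69 higher, while no other control feature differed by more than 0.50. Both parted all 15 arrays as their genotype labels do. The sequence behind these features is not given in the sources used here.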

How the results depend on the processing

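Of 2836 values of 120 named genes under alternatives, none changed sign, 2575 kept their side of the threshold, 231 lost the call and 30, of 12 genes, gained it. Only the 22 called genes could lose the call, so all 231 losses were theirs. Most values that kept their side belonged to genes not called in the main fit. Of the 22, only 3 stayed called with each array left out in turn. Myh7 was called under every alternative that held it, as single-probe genes leave it out. Of 22 genes called for genotype (9 higher, 13 lower), 9 (4 higher, 5 lower) remained without a time term. The equal-weight mean of the effects from the fit of 4 group means called 76 (42 and 34), quantile normalization 49 (29 and 20) and array weights 40 (18 and 22), each with all 22 among them. Median centring called 15 (7 and 8), robust moderation 14 (6 and 8), the most variable probe 10 (3 and 7) and genes with a single probe 49 (29 and 20, 14 of them among the 22). The 21 genes past an unadjusted 0.05 at each time became 44 after quantile normalization, 10 with the most variable probe and 42 with single probes. With the most variable probe 1 gene was called for the difference between effects in place of 0. A replicate block within each time left 1 gene called, Myh7 (1 higher, 0 lower; adjusted p = 0.0123). With 1 array left out the count ran from 3 to 28 (1 to 12 higher, 2 to 17 lower), the genes past 0.05 at each time from 3 to 28 and the genes called for the difference from 0 to 4. Of 888 list medians 10 moved by more than the spread between replicates. What dim probes limit is not known, as no signal over background was used.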

Other observations

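Beyond the genes described above, chaperones and hypoxia targets held members that lay lower at both times without being called. Of 27 chaperone genes of the endoplasmic reticulum and mitochondria, 7 (25.9%) were lower and 1 higher at an unadjusted p under 0.05, against 4.85% and 4.44% of all genes. Hspa5, the main chaperone of the endoplasmic reticulum, differed by -0.54 ± 0.11 (adjusted p = 0.0692), with -0.42 at 2 weeks and -0.64 at 10 weeks. Atf6, a sensor of unfolded protein there, differed by -0.32 ± 0.08 (adjusted p = 0.114), with -0.40 and -0.26. Of 19 hypoxia factors and targets 3 were lower and 2 higher, with a median of -0.19. The mitophagy receptor Bnip3 differed by -0.51 ± 0.10 (adjusted p = 0.0696), and the glycolytic regulator Pfkfb4 by 0.61 ± 0.13 (adjusted p = 0.0692), each in the same direction at both times.

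Gstk1, a glutathione transferase of mitochondria and peroxisomes, differed by -0.40 ± 0.08 (adjusted p = 0.0624), with -0.41 at 2 weeks and -0.40 at 10 weeks. Its knockouts ran from -0.42 to -0.09 and its controls from 0.00 to 0.41 without overlap. Srebf1, which encodes a regulator of lipid synthesis, differed by 0.80 ± 0.15 (adjusted p = 0.0532), with 0.31 ± 0.12 at 2 weeks and 1.22 ± 0.11 at 10 weeks, and its knockouts lay above its controls at each time. Among 28 SREBP genes the median was 0.02. Immediate early genes had a median of 0.18 over 21 genes, with -0.01 at 2 weeks and 0.30 at 10 weeks. At the unadjusted threshold 5 (23.8%) were higher and none lower, against 4.44% and 4.85% of all genes. None of the 21 passed that threshold in the same direction at each time.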
